A study of Mus musculus with 6 samples.

Results

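The tubulin genes described here are 10 of the 55573 genes in the deposited count table, chosen by symbol: Tubb1, Tuba8, Tuba4a, Tuba1a, Tuba1b, Tuba1c, Tubb2a, Tubb4b, Tubb5 and Tubb6. All 10 passed the filter on low counts and were among the 16493 genes tested. The RNA came from mouse samples labelled megakaryocytes, the large cells that shed platelets, 3 of them Abcc4-/- and 3 WT (wild type). The genotype is the only difference that the labels give, and they state no treatment, age or strain. Abcc4 encodes a membrane pump that exports cyclic nucleotides and thiopurine drugs, and the series title asks about its place in megakaryopoiesis and in protection from 6-mercaptopurine, such a drug. The sample titles contain CD41, a surface protein of megakaryocytes. The sources used here do not give how the cells were selected, which part of Abcc4 is deleted, or whether each sample is a separate mouse. The p-values therefore reflect only how far these 6 samples vary, which may be technical.

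Microtubules are hollow filaments built from pairs of one alpha-tubulin and one beta-tubulin protein. Each kind of tubulin is encoded by several genes, called isotypes, that differ mostly in their last residues and in the tissues that use them. Megakaryocytes push out long, microtubule-filled extensions, the proplatelets, and platelets keep a coil of microtubules, the marginal band, under their membrane. Tubb1 encodes the beta-tubulin that is restricted to this lineage and makes up most of the beta-tubulin of the platelet coil, and mice that lack it have few and rounded platelets. TUBA4A and TUBA8 are the alpha-tubulins associated with platelets in humans. Tuba1b and Tubb5 are the general isotypes of dividing cells, Tubb4b is also widely used, Tuba1a and Tubb2a are best known from neurons, and Tuba1c and Tubb6 are widely expressed isotypes.

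The libraries held between 67009925 and 99294493 counts in Abcc4-/- and between 50440239 and 55123512 counts in WT, so the Abcc4-/- libraries were all deeper. CPM below is the count scaled to the library's size after TMM normalization, and TPM is the authors' value that is also scaled to transcript length. Abcc4 itself had 60.1, 60.5 and 62.3 CPM in Abcc4-/-, against 74.2, 71.8 and 75.7 CPM in WT (edgeR, log2 fold change -0.28, SE 0.05, adjusted p = 0.0026), a value over the whole gene that does not check the deletion. Among the 28 platelet and megakaryocyte markers listed, 3 had a mean below 1 TPM, Cmtm5 among them at 0 in all 6 libraries. The 28 markers took 0.0910% to 0.106% of the counts in Abcc4-/- and 0.153% to 0.199% in WT. With Thbs1, which immune and stromal cells also make, left out after its values were seen, the shares were 0.0802% to 0.0920% in Abcc4-/- and 0.0998% to 0.110% in WT. The 16 neutrophil markers took 4.35% to 4.51% in Abcc4-/- and 2.50% to 3.20% in WT, and 9 B cell markers took 0.212% to 0.239% in Abcc4-/- and 0.148% to 0.181% in WT. In every library the neutrophil list took a larger share of the counts than the platelet list.

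Promoter sequences are shown for Tubb1, because it is the platelet-lineage isotype, and for Tuba1c and Tubb2a, which were lower together in Abcc4-/- and whose 250 bases before the RefSeq start hold no annotated exon of the gene. The sequences are RefSeq's, on GRCm38.p6, each read 5′ to 3′ in the direction of its gene, and capitals mark matches to the motifs named after them. The windows are chr2:174450345-174450594 on the plus strand for Tubb1, chr15:99029641-99029890 on the plus strand for Tuba1c, and chr13:34078009-34078258 on the minus strand for Tubb2a.
Tubb1: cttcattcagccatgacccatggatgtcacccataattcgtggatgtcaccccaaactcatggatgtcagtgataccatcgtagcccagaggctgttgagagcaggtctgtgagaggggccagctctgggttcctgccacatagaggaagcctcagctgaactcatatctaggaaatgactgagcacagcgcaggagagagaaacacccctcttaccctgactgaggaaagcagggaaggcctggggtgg
Tuba1c: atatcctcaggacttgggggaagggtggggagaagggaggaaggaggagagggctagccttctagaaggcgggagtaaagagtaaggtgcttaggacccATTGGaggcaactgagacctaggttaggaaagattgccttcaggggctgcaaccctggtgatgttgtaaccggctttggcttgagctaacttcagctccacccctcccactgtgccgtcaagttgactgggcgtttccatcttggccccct
Tubb2a: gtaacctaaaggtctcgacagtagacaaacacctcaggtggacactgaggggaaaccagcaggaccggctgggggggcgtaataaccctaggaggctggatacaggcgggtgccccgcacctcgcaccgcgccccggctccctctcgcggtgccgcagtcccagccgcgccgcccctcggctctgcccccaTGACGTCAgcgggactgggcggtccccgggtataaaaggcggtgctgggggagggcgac
The motifs were searched on both strands: TGANTCA, the core shared by AP-1 and NF-E2 sites, the GATA site AGATAA, the cAMP response element TGACGTCA, the CCAAT box CCAAT, the ETS site CCGGAA and the CArG box. The Tubb2a window held 1 cAMP response element 59 bases before the start, a motif present in 1.55% of the 32817 promoter windows of the same length. All these motifs were searched in the windows of every member but Tubb6, and only that of Tubb2a held this element. The 1.55% is therefore not the rarity of a single search, and a link to the lower Tubb2a values was not tested. The Tuba1c window held 1 CCAAT box on the opposite strand, which 33.8% of the windows hold. The Tubb1 window held none of these letter strings, where the AP-1 and NF-E2 core is in 6.75% of windows and the GATA site in 9.99%. A match is a string of letters and not a measured site, and the first base of the Tubb1 transcript lies 100 bases further downstream in the GENCODE annotation than in RefSeq.

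Reads of some tubulin genes cannot be told apart. In the GENCODE M21 transcripts, 65.1% of the 100-base stretches of Tuba1a, 62.1% of those of Tuba1b and 46.0% of those of Tuba1c also occur in another gene. The partners include each other and gene models such as Gm49450, which is annotated as protein-coding. The share was 36.9% for Tubb2a, whose main partner is Tubb2b, and 20.98% for Tubb4b, whose main partner is a pseudogene. Tubb1, Tuba8, Tuba4a, Tubb5 and Tubb6 shared 0% of their stretches. The deposited counts followed this: these last 5 genes had whole-number counts in all 6 libraries, and the other 5 had fractional counts in all 6, as the estimation step of RSEM gives when it divides shared reads. The split of reads among Tuba1a, Tuba1b and Tuba1c, and between Tubb2a and Tubb2b, is therefore uncertain. Some members also overlap another gene: Tuba1a and Tuba1b overlap the gene model Gm49450 on their own strand, Tuba8 overlaps the antisense Gm15856, Tuba4a overlaps Stk16 and Tubb4b overlaps Fam166a, each on the opposite strand. The library kit keeps the strand, and the names of the deposited tables contain the word STRANDED. No label or file header says whether the counting used the strand.

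Tubb1 transcript was low in every library labelled as megakaryocyte. Tubb1 (ENSMUSG00000016255.5, chromosome 2, positions 174450695 to 174457882, plus strand of GRCm38) had 40, 66 and 70 counts in Abcc4-/-, against 56, 45 and 48 counts in WT. Per length this was 0.63, 0.71 and 0.95 TPM in Abcc4-/-, against 1.13, 0.97 and 1.02 TPM in WT. It ranked 11470 among 21900 protein-coding genes by mean TPM. Of the 16716 with a mean above 0, 68.6% stood above it. Tubb5, the most abundant beta-tubulin, stood 752-fold higher. Of the 28 platelet and megakaryocyte markers, 25 had a higher mean TPM than Tubb1, and Alox12, Gp6 and Cmtm5 a lower one. Itga2b, which encodes CD41, had 53.9 ± 9.24 TPM in Abcc4-/- and 91.9 ± 12.8 TPM in WT, and the platelet chemokine gene Pf4 had 66.5 ± 6.42 TPM in Abcc4-/- and 127 ± 22.2 TPM in WT (SD, n = 3 each). Tubb1 therefore stood well below both of these lineage genes on the per-length scale. Both are among the highest of the 28 markers, whose median was 4.66 TPM. Others stood nearer to Tubb1, such as Gp1ba with a mean of 1.325 TPM and Clec1b with 1.865 TPM.

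**Figure D1:**
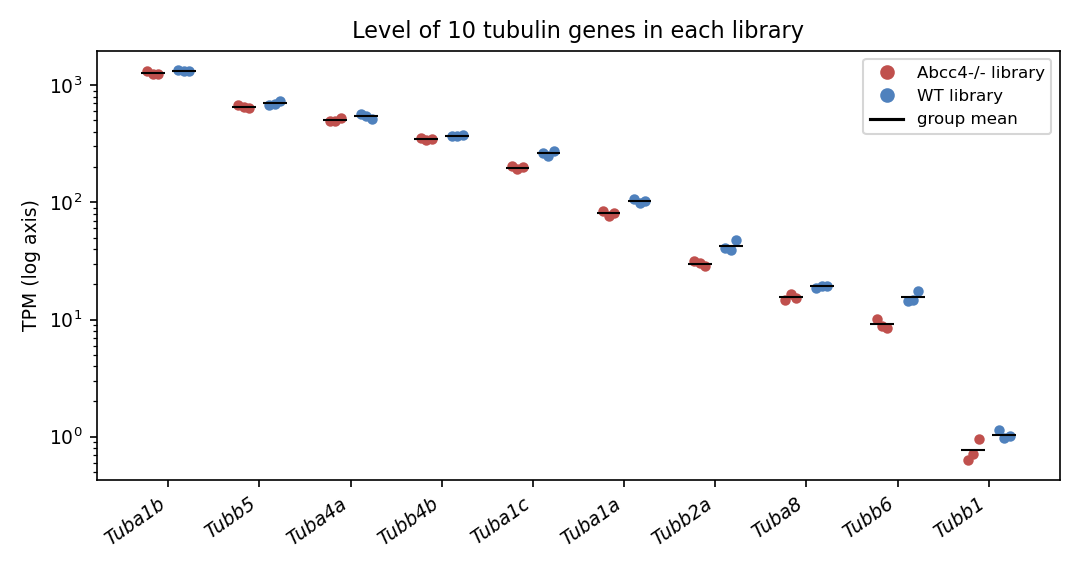
Level of each tubulin gene in the 6 libraries, in TPM on a log axis, ordered by the mean over all libraries; points are libraries, Abcc4-/- left of WT, and bars are group means. Tuba1b leads at a mean of 1295 TPM, and Tubb1 is last at 0.902 TPM, 13.7-fold below Tubb6.

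The order of the isotypes held within each of the 6 libraries. By mean TPM the order ran Tuba1b (1295), Tubb5 (678), Tuba4a (524), Tubb4b (359), Tuba1c (230), Tuba1a (91.7), Tubb2a (36.2), Tuba8 (17.3), Tubb6 (12.3) and Tubb1 (0.902). Each neighbour in this order was separated by its full range over the libraries, except Tuba8 and Tubb6, whose ranges of 14.7 to 19.5 TPM and 8.40 to 17.4 TPM overlapped. The 3 isotypes linked to platelets thus stood at very different levels, with Tuba4a near the top, Tuba8 near the bottom and Tubb1 last. Alpha-tubulin and beta-tubulin kept a near-constant ratio: summed TPM of the alpha members over that of the beta members was 1.98 ± 0.0392 in Abcc4-/- and 1.99 ± 0.0997 in WT (SD, n = 3 each).

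Of the 10 tubulin genes, 5 were lower in Abcc4-/- and 0 were higher, while the most abundant isotypes did not pass the test. Tubb6, Tubb2a, Tuba1c, Tuba1a and Tuba8 fell, to between 62.5% and 85.1% of the WT level. Over all 16493 genes, 17.3% were called in either direction, 8.68% lower and 8.61% higher (edgeR quasi-likelihood test, adjusted p below 0.05). The members' median log2 fold change was -0.25, against 0.00091 over all genes tested. No member was called higher by DESeq2 or limma-voom either, and 0 members had a positive fold change with an unadjusted p below 0.05. The CPM of 6 members, the 5 called and Tubb1, did not overlap between the groups and was lower in Abcc4-/-, where 18.3% of all genes showed that pattern and 36.8% did not overlap in either direction. By their summed shares given above, neutrophil and B cell markers were higher and platelet markers lower in the same Abcc4-/- libraries. Gene by gene, 10 of 16 neutrophil markers were called higher and 1 lower, and 6 of 9 B cell markers higher and 0 lower. Of 9 T and NK cell markers 6 were called higher and 0 lower (median log2 fold change 0.92), with 0.0126% to 0.0142% of the counts in Abcc4-/- and 0.0104% to 0.0130% in WT. Of 7 mast cell and basophil markers 2 were called lower, of 11 macrophage and monocyte markers 2 were called lower, and of 10 erythroid markers 2 were called higher. Their part in the tubulin values was not tested, and in bulk RNA fewer cells of a type and less RNA per cell cannot be told apart.

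**Figure D2:**
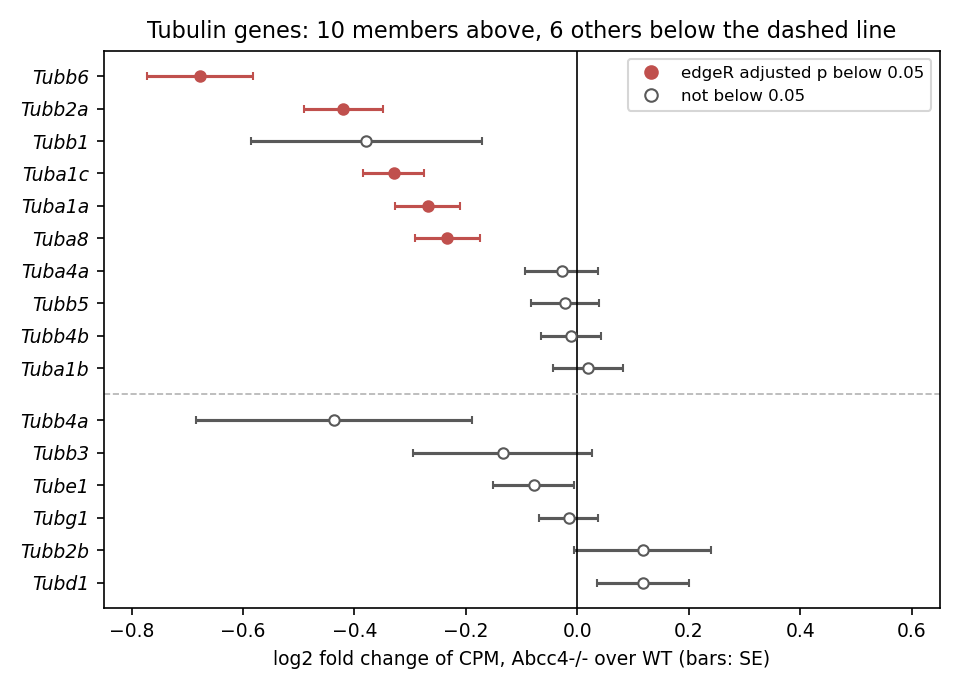
Log2 fold change of CPM, Abcc4-/- over WT, for the 10 tubulin genes (above the dashed line) and the 6 other tubulin genes tested (below it); bars are standard errors from edgeR and filled points have an adjusted p below 0.05. The 5 filled points lie between -0.68 and -0.23, and the 4 most abundant isotypes lie between -0.03 and 0.02.

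Among the beta-tubulins that fell, Tubb6 had the largest change. Tubb6 (ENSMUSG00000001473.7) had 12.6, 10.7 and 9.83 CPM in Abcc4-/-, against 16.6, 16.9 and 19.3 CPM in WT. All 3 Abcc4-/- libraries lay below all 3 WT libraries, and the gene shares no reads with another tubulin. The log2 fold change was -0.68 (SE 0.10, adjusted p = 0.00096), or 62.5% of the WT level.

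Tubb2a (ENSMUSG00000058672.7, chromosome 13, positions 34074274 to 34078007, minus strand), whose promoter window is printed above, had 35.3, 33.2 and 30.5 CPM in Abcc4-/-, against 42.8, 41.4 and 48.1 CPM in WT. The groups did not overlap (log2 fold change -0.42, SE 0.07, adjusted p = 0.0023). Its near-identical neighbour Tubb2b, another isotype best known from neurons, had 10.7, 8.58 and 7.41 CPM in Abcc4-/-, against 7.64, 8.40 and 8.49 CPM in WT, and did not pass (adjusted p = 0.569). Because their reads can be exchanged, the 2 genes were also summed: Tubb2a plus Tubb2b had 45.9, 41.7 and 37.9 CPM in Abcc4-/-, against 50.5, 49.8 and 56.6 CPM in WT. The sum was lower in all 3 Abcc4-/- libraries, without a test.

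The alpha-tubulins that fell changed less. Tuba1c (ENSMUSG00000043091.9, chromosome 15, positions 99029891 to 99038110, plus strand) had 262, 235 and 247 CPM in Abcc4-/-, against 316, 306 and 312 CPM in WT. Its groups stood clearly apart (log2 fold change -0.33, SE 0.05, adjusted p = 0.0020). Tuba1a (ENSMUSG00000072235.6, chromosome 15, positions 98949837 to 98953703, minus strand) had 108, 94.8 and 99.4 CPM in Abcc4-/-, against 127, 119 and 118 CPM in WT. It fell by 0.27 on the log2 scale (SE 0.06, adjusted p = 0.0094), and without Abcc4-/- replicate 2 it no longer passed (adjusted p = 0.0536, where the alternatives run from 0.00039 to 0.0536).

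Their abundant relative Tuba1b had 1618, 1480 and 1446 CPM in Abcc4-/-, against 1532, 1512 and 1439 CPM in WT. These ranges overlapped, with Abcc4-/- replicate 1 above every WT library (log2 fold change 0.02, SE 0.06, adjusted p = 0.877). The sum of Tuba1a, Tuba1b and Tuba1c was 1863 ± 108 CPM in Abcc4-/- and 1927 ± 53.5 CPM in WT (SD, n = 3 each), with overlapping groups. Most of this sum is Tuba1b, so it says little about the 2 smaller genes. Gene models that share stretches with these genes, such as Gm49450, were left out of the sum. Whether the division of shared reads differed between the groups was not tested.

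Of the isotypes linked to platelets, 1 of 3 fell, against 4 of the 7 others, where 8.68% of all genes tested were called lower. Tuba8 (ENSMUSG00000030137.8, chromosome 6, positions 121210696 to 121226854, plus strand) had 24.1, 26.4 and 23.9 CPM in Abcc4-/-, against 28.8, 30.1 and 28.7 CPM in WT. Its groups did not overlap, and the log2 fold change was -0.23 (SE 0.06, adjusted p = 0.018). This call was lost without Abcc4-/- replicate 1, Abcc4-/- replicate 3 or WT replicate 2 (adjusted p = 0.0584 to 0.0745), and the alternatives run from 0.0080 to 0.0747.

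Tuba4a, the abundant alpha-tubulin linked to platelets in humans, had 432, 416 and 432 CPM in Abcc4-/-, against 463, 451 and 392 CPM in WT. The groups overlapped, since WT replicate 3 lay below every Abcc4-/- library (log2 fold change -0.03, SE 0.07, adjusted p = 0.814).

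Tubb1 had 0.604, 0.669 and 0.867 CPM in Abcc4-/-, against 1.02, 0.887 and 0.882 CPM in WT. The 3 Abcc4-/- values lay below the 3 WT values, but Abcc4-/- replicate 3 and WT replicate 3 were almost equal. Their exact Poisson 95% intervals, which cover counting error only, were 0.676 to 1.09 CPM in Abcc4-/- replicate 3 and 0.650 to 1.17 CPM in WT replicate 3. The log2 fold change was -0.38 (SE 0.21, adjusted p = 0.242), so a difference of this size did not pass the test. The fitted value was close to that of Tubb2a (-0.42), whose standard error was 0.07. The median log2 fold change was -0.23 over the 3 isotypes linked to platelets and -0.27 over the 7 others.

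**Figure D3:**
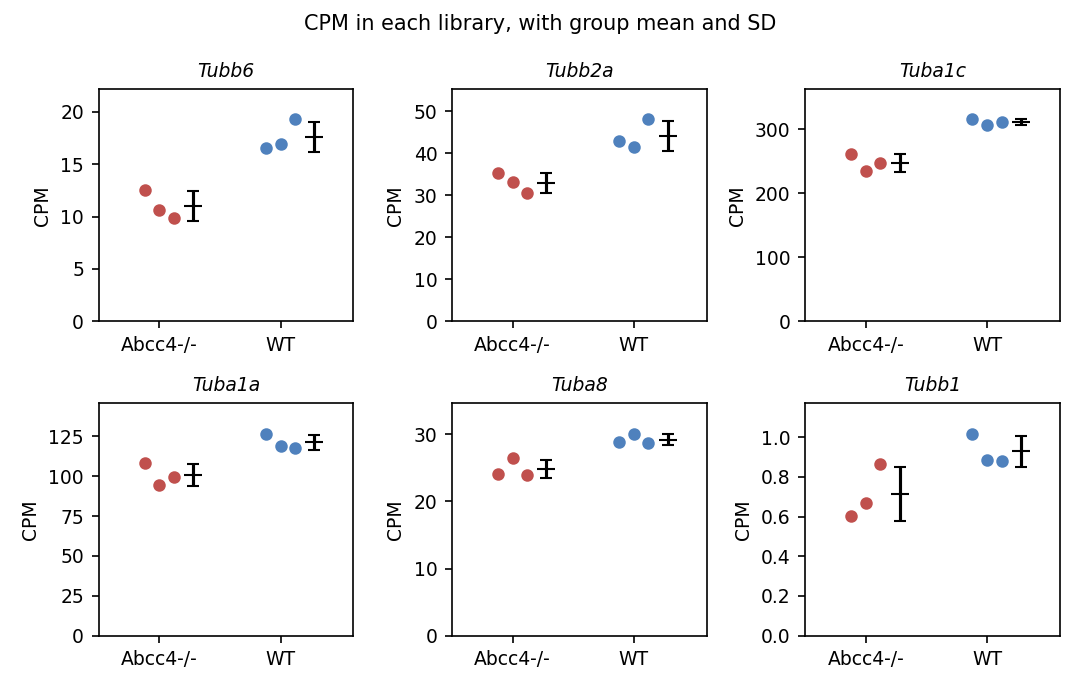
CPM of the 5 genes called lower and of Tubb1 in each library, Abcc4-/- left of WT, with linear axes from 0; points are libraries, and the dash with bars is the group mean with its SD. In each panel all Abcc4-/- points lie below all WT points, with the smallest gap for Tubb1 (0.867 CPM in the highest Abcc4-/- library against 0.882 CPM in the lowest WT library).

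The remaining abundant isotypes overlapped between the groups. Tubb5 had 1183 ± 73.0 CPM in Abcc4-/- and 1201 ± 21.9 CPM in WT (log2 fold change -0.02, adjusted p = 0.851), and Tubb4b had 370 ± 17.5 CPM in Abcc4-/- and 373 ± 6.61 CPM in WT (log2 fold change -0.01, adjusted p = 0.913; SD, n = 3 each). Seen by level, 0 of the 4 isotypes with a mean above 300 TPM and 5 of the 6 below it were called, a dividing line that was placed after the values were seen. The 4 abundant isotypes held 88.0% of the summed tubulin TPM. The sum of all 10 genes was 3912 ± 200.4 CPM in Abcc4-/- and 4029 ± 73.8 CPM in WT, with overlapping groups. On the TPM scale the sum was 3106 ± 74.6 in Abcc4-/- and 3381 ± 35.8 in WT, without overlap (SD, n = 3 each). The scales differ for genes in general, since the median log2 fold change of all genes tested was -0.06 on log2(TPM + 1).

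The mix of isotypes shifted by small amounts within each kind of tubulin. Of the summed alpha-tubulin TPM, Tuba1c made up 9.57%, 9.50% and 9.76% in Abcc4-/-, against 11.4%, 11.3% and 12.3% in WT, and Tuba1a 3.91 ± 0.117% in Abcc4-/- and 4.56 ± 0.111% in WT. Tuba1b made up 61.4 ± 1.16% in Abcc4-/- and 58.8 ± 0.461% in WT, where the read sharing given above applies (SD, n = 3 each). This Tuba1b share was higher in every Abcc4-/- library than in any WT library. Tuba8 and Tuba4a together made up 24.0%, 25.2% and 26.1% in Abcc4-/-, against 25.7%, 25.6% and 23.9% in WT, so their joint share overlapped. Tuba8 alone made up 0.694% to 0.818% in Abcc4-/- and 0.814% to 0.877% in WT, also with overlap.

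Among the beta-tubulins, Tubb6 made up 0.951%, 0.856% and 0.823% of the summed TPM in Abcc4-/-, against 1.32%, 1.31% and 1.48% in WT. Tubb2a made up 2.88 ± 0.0755% in Abcc4-/- and 3.74 ± 0.277% in WT. Both were lower in every Abcc4-/- library. Tubb1 made up 0.0587%, 0.0688% and 0.0931% in Abcc4-/-, against 0.102%, 0.0873% and 0.0866% in WT. Its shares overlapped, and in none of the 6 libraries did the platelet isotype exceed 0.102% of the beta-tubulin transcript. Shares over the chosen members were given no test.

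**Figure D4:**
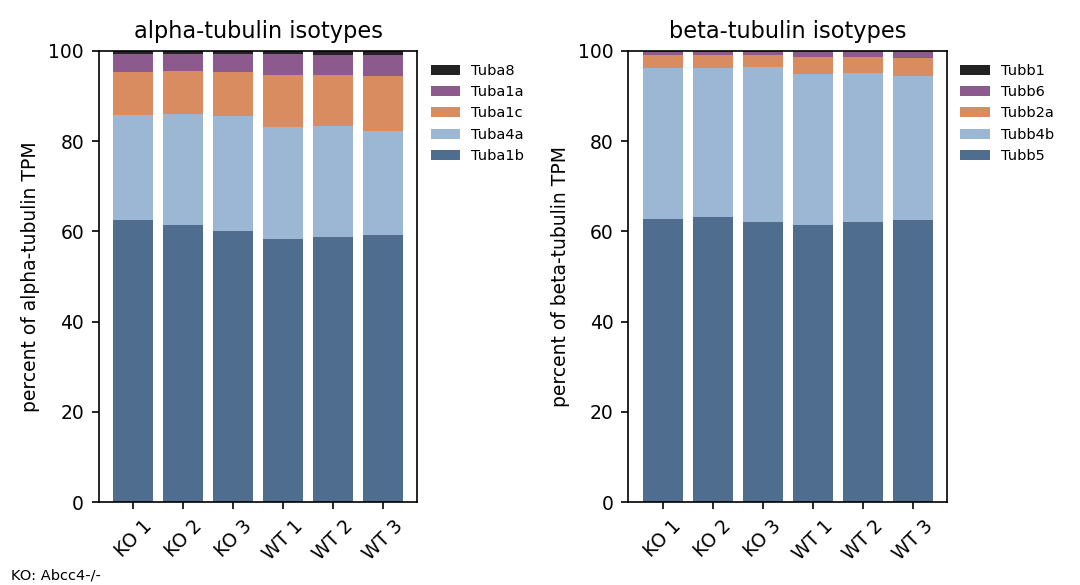
Share of each isotype in the summed TPM of the 5 alpha-tubulin genes (left) and the 5 beta-tubulin genes (right) in each library; KO stands for Abcc4-/-. Tuba1b and Tubb5 take the largest shares in all libraries, and Tubb1, at the top of the right panel, is too small to see (0.0587% to 0.102%).

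The other tubulin genes gave 0 calls. Of 10 listed, 6 passed the filter, and 0 of these had an unadjusted p below 0.05 or were called by edgeR, DESeq2 or limma-voom. Over all genes tested edgeR called 17.3%, so 0 of 6 is no result about the list. Tubg1, the gamma-tubulin that starts new microtubules, had a mean of 32.4 CPM in Abcc4-/- and 32.7 CPM in WT (log2 fold change -0.02, SE 0.05, adjusted p = 0.879). The centriolar tubulin genes Tubd1 and Tube1 had log2 fold changes of 0.12 and -0.08 (adjusted p = 0.370 and 0.508), and Tubb3 and Tubb4a, isotypes of neurons and the brain, had -0.13 and -0.44 (adjusted p = 0.624 and 0.259). Tuba3a, Tuba3b, Tubal3 and Tubg2 did not pass the filter.

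Genes that fold tubulin were not called in either direction, where edgeR called 17.3% of all genes tested. Of 22 chaperonin, prefoldin and tubulin cofactor genes, with Ttc5, whose protein recognises newly made tubulin and brings down its mRNA, 0 were called by edgeR, DESeq2 or limma-voom, and 2 had an unadjusted p below 0.05, both higher. The share of all genes with an unadjusted p below 0.05 is not given here. Counts at that threshold, in this and the other lists, therefore stand without a background. The gene with the smallest p was Pfdn4, a prefoldin subunit, at 11.6 ± 1.03 CPM in Abcc4-/- and 10.3 ± 0.201 CPM in WT (SD, n = 3 each; adjusted p = 0.148). The median log2 fold change of this list was 0.07. In the nucleation list, 0 of 10 genes of the gamma-tubulin ring complex and its anchors were called by these 3 tools. In it 2 genes had an unadjusted p below 0.05, and 0 of the 2 were higher. The 0 calls too stand beside the 17.3% called over all genes tested. Cdk5rap2, which anchors the ring complex at centrosomes, had the smallest p (log2 fold change -0.17, adjusted p = 0.0827).

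Among genes that modify tubulin, 1 of 21 tested rose and 0 fell, where 8.61% of all genes were called higher and 8.68% lower, so the count is no result about the list. Ttll11, a glutamylase that adds glutamate chains to tubulin, had 1.43, 1.24 and 1.07 CPM in Abcc4-/-, against 0.400, 0.473 and 0.496 CPM in WT. Its groups stood far apart for a gene of 22 to 122 counts per library (log2 fold change 1.44, SE 0.21, adjusted p = 0.00095).

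In the list of microtubule dynamics and transport, 2 of 28 genes tested fell and 0 rose, where 8.68% of all genes were called lower, so this count too is near the background. Camsap1, whose protein binds microtubule minus ends, had 12.9, 14.3 and 13.2 CPM in Abcc4-/-, against 16.9, 16.8 and 19.1 CPM in WT (log2 fold change -0.38, SE 0.07, adjusted p = 0.0040). It was not called on any TPM scale (adjusted p = 0.139 to 0.190). Its relative Camsap3 had 1.02 ± 0.145 CPM in Abcc4-/- and 1.61 ± 0.329 CPM in WT (SD, n = 3 each; log2 fold change -0.64, adjusted p = 0.0423), and lost its call in 11 of 18 alternatives. These were DESeq2 (adjusted p = 0.0530), limma-voom (0.0560), thinned counts (0.0540), the 3 TPM scales (0.163 to 0.371) and the fits without any library but WT replicate 1 (0.0670 to 0.150). Both genes were named because they were called, and Camsap2, also listed, was not called. Of the 16 mitotic markers, such as the cell cycle genes Mki67 and Top2a, 0 were called by edgeR, DESeq2 or limma-voom. Of these markers 3 had an unadjusted p below 0.05, and 0 of the 3 were higher. On log2(TPM + 1), limma called 2 lower and 0 higher, where it called 1399 lower and 563 higher over all 16493 genes. Over all genes tested, edgeR called 17.3% in either direction.

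Of the platelet and megakaryocyte markers, 27 were tested, of which 17 fell and 1 rose, with a median log2 fold change of -0.52. Over all genes tested, edgeR called 8.68% lower and 8.61% higher. Whether the share of these markers differs from that of the tubulins was not tested. Rab27b, a granule-trafficking gene, had a log2 fold change of -0.90 (adjusted p = 0.00034), the adhesion protein gene Vwf -1.25 (0.0020), Pf4 -0.85 (0.0066) and Itga2b -0.72 (0.0106). The thrombin receptor gene F2rl2 had 4.30 ± 0.334 CPM in Abcc4-/- and 6.67 ± 0.873 CPM in WT (SD, n = 3 each; log2 fold change -0.63, adjusted p = 0.0039). With WT replicate 3 left out, Itga2b was not called (adjusted p = 0.0667). Of these 5, Rab27b, Vwf and F2rl2 were named for their small adjusted p, so their falls do not stand for the list. Ppbp, a platelet chemokine gene named here after its values were seen, had 3.43, 3.71 and 4.71 TPM in Abcc4-/-, against 3.16, 2.58 and 2.67 TPM in WT.

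The genes whose pattern over the 6 libraries was most like that of Tubb1 were ranked by the root mean square difference in log2 CPM after each gene was centred on its own mean. Apoc2, an apolipoprotein gene, was closest (0.0457), followed by Zfp976 (0.0787), Selp (0.0943), Asap2 (0.0965) and Tmcc2 (0.101). Selp encodes P-selectin, an adhesion protein of platelet granules and endothelium, and had 6.02, 6.06 and 7.38 CPM in Abcc4-/-, against 8.82, 9.05 and 8.38 CPM in WT. Its TPM groups overlapped, with 5.07 ± 1.48 in Abcc4-/- and 5.49 ± 0.426 in WT (SD, n = 3 each). Like Tubb1 and the other genes of this ranking, Selp had its highest Abcc4-/- CPM in replicate 3, a likeness that the ranking selects for. With 6 libraries and a gene as low as Tubb1, such a ranking is a description only.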

How the data were processed

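Per the submitters' processing notes, STAR 2.7, RSEM 1.3.1 and the mm10 build were used, with no annotation release named. The authors deposited 2 tables by gene: expected counts without normalization, and TPM. Per the labels' protocols, the libraries were stranded mRNA libraries read as paired ends. All 92 spike-in entries were left out.

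The deposited expected counts were rounded and tested with edgeR 4.0.16 in R 4.3.3 (TMM, default filter on low counts, quasi-likelihood test with robust fitting, genotype as the sole term, Benjamini-Hochberg adjustment over 16493 genes). Each SE is the fold change divided by the root of its F value. CPM used TMM library sizes, and log2 CPM a prior count of 2. The floor of 3 counts lay at 0.0304 to 0.0591 CPM, depending on the library. With 3 against 3 samples no 2-sided exact permutation test can give a p below 0.1, so none is reported.

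The members and gene lists were chosen with earlier results of these data known. Named genes are the members, Abcc4, the other tubulins tested, up to 3 called genes per list with the smallest adjusted p (the smallest p where none was called), Itga2b and Pf4, and the 5 genes most like Tubb1 (lowest mean log2 CPM allowed: 1), leaving out sex-linked genes and gene models. Alternatives used DESeq2 1.42.0, limma 3.58.1 (voom, and log2 TPM with pseudocounts of 1 and 0.1), other scalings and filters, unrounded and thinned counts, a replicate block and each library left out. Positions and transcripts came from GENCODE M21 (GRCm38), which matched 55480 genes without the version. The lengths RSEM applied to each member, seen as count over TPM relative to the library median, differed by at most 3.81% between libraries.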

Additional observations from a re-analysis of the deposited data

How the results depend on the processing

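The 5 tubulin calls held in each alternative that kept all 6 libraries, except that 4 held (without Tuba8, adjusted p = 0.0747) when log2(TPM + 1) was centred on each library's median, an alternative chosen after seeing the data. Without 1 library, 4 to 5 were called; the missing gene was Tuba8 or, without Abcc4-/- replicate 2, Tuba1a. Over all genes, 2852 were called, 1849 on centred TPM and 1760 to 2415 without 1 library, the lowest without Abcc4-/- replicate 2 and 1821 without Abcc4-/- replicate 1; the cause was not tested. Of the calls, 49.8% were higher in Abcc4-/-, 28.7% on log2(TPM + 1) and 57.0% on centred TPM. The joint share of Tuba8 and Tuba4a in alpha-tubulin differed by 0.0558 percentage points (Abcc4-/- minus WT), -0.541 to 0.624 without 1 library, and that of Tubb1 in beta-tubulin by -0.0185, -0.0283 to -0.0111 without 1 library.

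Of 573 gene values under alternatives, 517 kept their status, 40 lost their call and 4 gained one. Asap2 lost its call in 9 of 18 alternatives, and Selp and Tmcc2 in 5 each. Itga2b also lost its call in edgeR without a filter on low counts (adjusted p = 0.0504). The remaining 12 values reversed, all of genes that were not called. Tuba1b had a log2 fold change of -0.0614 on log2(TPM + 1), -0.0615 on log2(TPM + 0.1), and -0.0286 to 0.0511 without 1 library. On centred TPM, Tubb4b stood at 0.0018 and Tubg1 at 0.0083. Without 1 library, Tuba4a ranged from -0.0964 to 0.0184, Tubb4b from -0.0494 to 0.0083, Tubb5 from -0.0651 to 0.0216, Tubb2b from -0.0286 to 0.232 and Tubg1 from -0.0404 to 0.0227. Apoc2, not called, passed with DESeq2, without a filter, with thinned counts and without Abcc4-/- replicate 3 (adjusted p = 0.0070 to 0.0384).

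Samples with the same replicate number did not deviate together (correlations of -0.0464, -0.0261 and -0.0145). The pairs with unlike numbers ran from -0.0598 to 0.0845. Deviations from a mean of 3 samples cannot decide whether the numbers pair them. With the replicate number as a block, 3157 genes and 5 tubulin genes were called. Tubb1 had the lowest counts of the members, 40 to 70 per library, and with a mean CPM of at least 1 required it was not tested.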
